A study of Mus musculus with 6 samples.

Results

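The 10 genes described here encode monocarboxylate transporters, among them those that carry lactate and pyruvate across the plasma membrane, and the chaperones of such carriers. They also encode the lactate dehydrogenase subunits and the mitochondrial pyruvate carrier. They were chosen by name for their place in the pathway, 10 of 35458 gene identifiers in the table, and no measured value entered the rule, though earlier results of these data were known. Their RNA was measured by RNA-seq in CD8+ T cells taken from the spleen of mice, in 3 KO libraries (genotype Cd4creGlut10fl/fl) and 3 control libraries (genotype Cd4cre). The control mice carry the Cre transgene too. Cd4cre acts in developing thymocytes, before the CD4 and CD8 lineages part, so that floxed alleles are recombined in CD8+ cells as well. Slc2a10 is the gene of Glut10, one of the facilitative hexose transporters. The labels give no age, sex or treatment; the series title speaks of lymphoma, but no label assigns a tumour to these mice. As nothing in them ties each library to a mouse of its own, the p-values hold only for the spread among these 6 libraries, and that spread may be technical.

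Glycolysis ends in pyruvate, which lactate dehydrogenase can reduce to lactate while it restores the NAD+ that glycolysis consumes. Ldha and Ldhb encode the subunits of the enzyme, and forms of the enzyme rich in the Ldha product are known for favouring lactate formation. Lactate and pyruvate cross the plasma membrane through monocarboxylate transporters (MCTs) together with a proton: Slc16a1 encodes MCT1, Slc16a3 encodes MCT4, the form typical of strongly glycolytic cells, and Slc16a7 encodes MCT2. MCT1 and MCT4 need the glycoprotein basigin (Bsg), and MCT2 its relative embigin (Emb), to reach the cell surface. Pyruvate that is not reduced enters mitochondria through a carrier made of the Mpc1 and Mpc2 products. Activated T cells are known for raising glycolysis and lactate export.

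Ldha and Slc16a3 are known targets of hypoxia-inducible factors, and Ldha and Slc16a1 of Myc, which binds E boxes; the stretches upstream of the start sites show where the letters of such elements lie. The promoter table of RefSeq (GRCm38.p6) held 9 start sites for 7 of the 10 genes. The 250 bases before each start were searched on both strands for ACGTG and GCGTG, the core letters of hypoxia response elements, and for the E box CACGTG, which contains ACGTG on both strands and so counts it again on each. Shown are the transporter pair and the dehydrogenase pair, because the results turn on the balance within each pair, with every core or E box in capitals. The stretches lie at chr11:120948817-120949066 (+ strand) for Slc16a3, chr3:104638414-104638663 (+ strand) for Slc16a1, chr7:46845554-46845803 (+ strand) for the first of the Ldha starts and chr6:142507958-142508207 (- strand) for Ldhb.
Slc16a3: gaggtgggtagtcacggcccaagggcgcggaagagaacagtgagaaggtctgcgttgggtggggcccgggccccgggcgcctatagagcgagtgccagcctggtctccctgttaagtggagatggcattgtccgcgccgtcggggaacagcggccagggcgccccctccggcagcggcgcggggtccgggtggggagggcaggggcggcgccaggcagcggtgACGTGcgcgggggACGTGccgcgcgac
Slc16a1: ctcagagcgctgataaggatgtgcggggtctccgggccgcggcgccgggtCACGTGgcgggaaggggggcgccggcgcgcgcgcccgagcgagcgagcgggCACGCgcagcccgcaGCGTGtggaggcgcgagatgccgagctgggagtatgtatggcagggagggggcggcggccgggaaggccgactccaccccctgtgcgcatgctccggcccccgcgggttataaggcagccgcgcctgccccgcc
Ldha: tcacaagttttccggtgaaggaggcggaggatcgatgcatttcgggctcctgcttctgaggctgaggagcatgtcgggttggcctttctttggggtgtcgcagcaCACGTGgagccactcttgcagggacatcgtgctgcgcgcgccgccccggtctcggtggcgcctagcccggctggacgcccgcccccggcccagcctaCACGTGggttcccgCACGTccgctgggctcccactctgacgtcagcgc
Ldhb: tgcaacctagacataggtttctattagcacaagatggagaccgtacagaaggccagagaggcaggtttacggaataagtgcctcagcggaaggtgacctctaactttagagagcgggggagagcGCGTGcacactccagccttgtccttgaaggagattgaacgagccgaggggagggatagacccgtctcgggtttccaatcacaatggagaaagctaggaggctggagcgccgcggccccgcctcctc
The Slc16a3 stretch held 2 ACGTG cores, 27 and 14 bases before the start. The Slc16a1 stretch held 2 ACGTG, both within 1 E box, and 2 GCGTG. Upstream of Ldha, 5 ACGTG matches lay on 2 E boxes and 1 further core. The Ldhb stretch held 1 GCGTG and no ACGTG. Of the 9 stretches, 7 held a core of either kind, 3 held ACGTG and 2 held an E box; the stretch of Emb and that of the second Mpc1 start held none. Among all 32851 promoters of the table, 38.6% held either core, 16.6% held ACGTG and 6.02% held the E box. The motifs contain CG, and the 9 stretches held 54.4% to 76.4% G and C, against a median of 52.4% over all promoters. The shares are therefore not compared at like base content. These are matches of letters, not tested sites.

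The libraries differed in ways the genotype labels do not give. The totals implied by the steps of the lowest FPKM values were 3420291, 14683394 and 3004540 fragments in KO 1, 2 and 3, against 11840638, 15020128 and 15036282 in control 1, 2 and 3. KO 1 and KO 3 stood apart on the first principal component (64.0% of the variance), and their summed FPKM over 812 olfactory and vomeronasal receptor genes was 807 and 856, against 15.3 in KO 2 and 25.3 to 65.0 in the controls. All 14 T cell markers were detected in every library, with summed FPKM of 1679, 2566 and 1630 in KO 1, 2 and 3, against 1716, 533 and 425 in control 1, 2 and 3. The 13 neutrophil markers, none at 0 in any library, summed to 275, 75.7 and 716 FPKM in KO 1, 2 and 3, against 448, 16956 and 29753 FPKM in control 1, 2 and 3. The targeted gene Slc2a10 had 0 implied reads in each KO library and 4, 2 and 2 in control 1, 2 and 3, too few to check the labels. In such bulk samples, fewer cells of a type and less RNA per cell cannot be told apart.

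With all 6 libraries, no gene of the pathway passed the test. For 2 of the transporters, Slc16a3 and Slc16a6, the listed value was lower in every KO library than in every control library. For both, the 95% counting intervals (exact Poisson) of the nearest KO and control library overlapped. Of the 10 genes, 9 had at least 1 FPKM in at least 3 libraries and entered the test. FPKM is fragments per kilobase of exon, scaled to the depth of the library. KO was compared with control by limma on log2(FPKM + 1), adjusted by Benjamini-Hochberg over 13956 genes at a threshold of 0.05. None of the 9 was called, beside 0 of all genes tested (0%), with a smallest adjusted p of 0.151 in limma; limma-voom on implied reads called 0 of 16254. At an unadjusted p under 0.05 stood 1646 genes, among them 2 of the 9. The groups did not overlap, with KO lower, for 2 of the 9, against 9.44% of all genes tested, and with KO higher for 0 of the 9, against 6.70%. The estimates were lower in KO for 8 of the 9 and higher for 1, against 43.1% lower over all genes. Their median difference was -0.34, beside 0.10 over all genes; without KO 1 and 3 these medians were 0.06 and 0.01, and without control 2 and 3 they were -0.17 and -0.06.

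**Figure D1:**
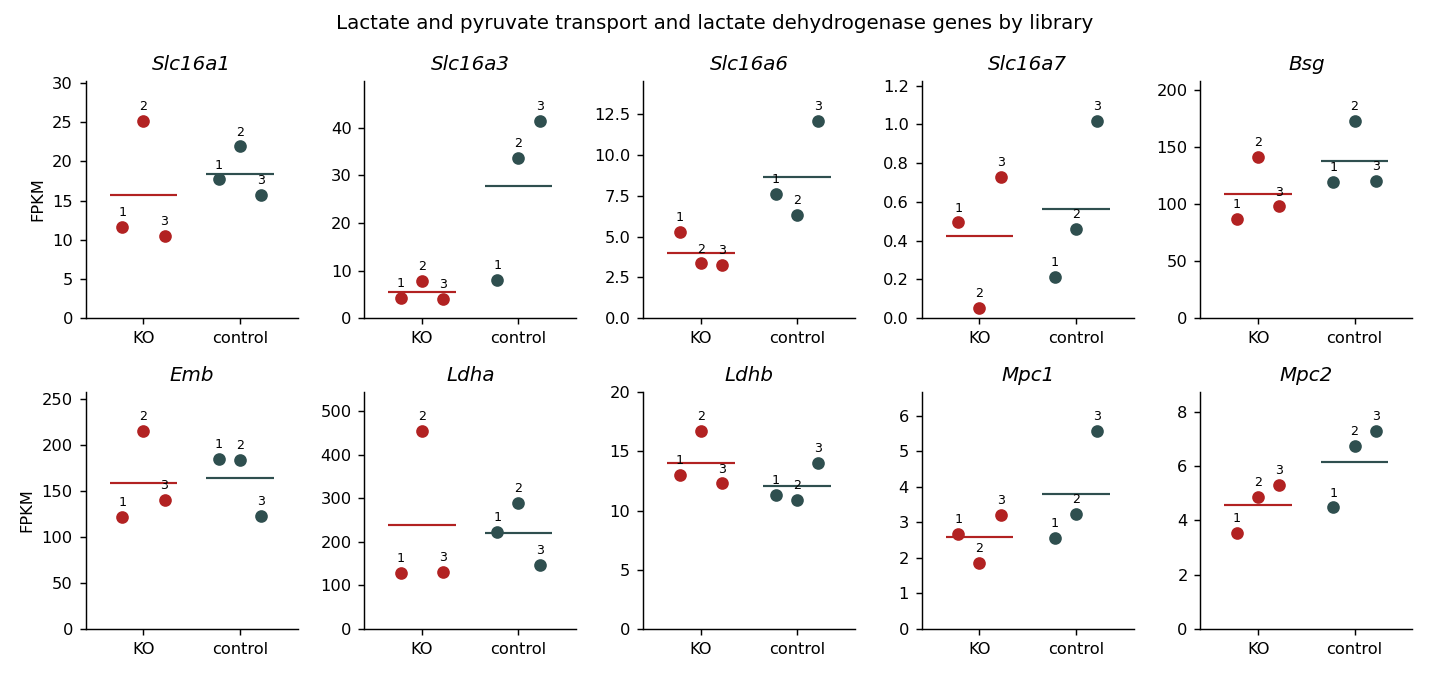
FPKM of the 10 genes (vertical axes, each from 0) in the KO libraries, left, and the control libraries, right. Points are libraries with their replicate number and lines are group means. The listed values do not overlap between groups for Slc16a3 and Slc16a6, but the 95% counting intervals of the nearest libraries do. KO 2 carries the highest Ldha value, 454 FPKM.

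Among the tested plasma membrane carriers, Slc16a3 had the estimate farthest from 0. Slc16a3 (ENSMUSG00000025161), the MCT4 gene, stood at 4.18, 7.89 and 4.13 FPKM in KO 1, 2 and 3, against 8.04, 33.7 and 41.5 FPKM in control 1, 2 and 3. The high values were those of control 2 and control 3, while control 1 lay beside KO 2. The 95% counting interval (exact Poisson, counting error only) was 7.28 to 8.54 FPKM in KO 2 and 7.35 to 8.77 FPKM in control 1, so these neighbouring libraries were not told apart by their depth. The means were 5.40 ± 2.16 FPKM in KO and 27.7 ± 17.5 FPKM in control (SD, n = 3 each). On the log2(FPKM + 1) scale the difference was -1.94 (SE 0.62, 95% interval -3.45 to -0.43), with a limma adjusted p of 0.417. The difference was -0.55 without control 2 and 3, -1.42 without KO 1 and 3, and -0.02 between KO 2 and control 1 alone. Leaving out control 1 gave -2.64 with a limma adjusted p of 0.0334, the only setting in which a gene of the 10 was called. The libraries with the highest Slc16a3 were the libraries with the highest neutrophil marker sums. The summed FPKM of the 14 macrophage and monocyte markers, none at 0 in any library, was also highest there. It was 936, 386 and 2236 in KO 1, 2 and 3, against 2126, 4675 and 4700 in control 1, 2 and 3. The list as a whole was not highest there. Its mean log2(FPKM + 1) was 4.46, 2.18 and 5.50 in KO 1, 2 and 3, against 4.79, 5.14 and 4.44 in control 1, 2 and 3. The part of other cells in the difference was not tested.

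Slc16a1, the MCT1 gene, did not separate the genotypes. It stood at 11.6, 25.2 and 10.5 FPKM in KO 1, 2 and 3, against 17.7, 21.9 and 15.7 FPKM in control 1, 2 and 3. KO 2 was the highest library and the shallow KO 1 and KO 3 the lowest, so the groups overlapped. The difference was -0.31 (SE 0.36, 95% interval -1.19 to 0.57; limma adjusted p 0.678), and 0.44 without KO 1 and 3.

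The balance of the pair followed Slc16a3. Slc16a3 made up 26.5%, 23.9% and 28.3% of the summed FPKM of both genes in KO 1, 2 and 3, against 31.2%, 60.6% and 72.5% in control 1, 2 and 3. Slc16a1 was the larger part in all KO libraries and in control 1, and Slc16a3 in control 2 and control 3. The groups did not overlap, with a mean share of 26.2% ± 2.24 in KO and 54.8% ± 21.3 in control (SD, n = 3 each). But 3 libraries against 3 cannot give a two-sided exact permutation p under 0.1. The gap lay between 28.3% in KO 3 and 31.2% in control 1. The KO 3 share rested on 66 implied reads of Slc16a3 and 139 of Slc16a1, and its counting error was not computed. How often other gene pairs give shares without overlap was not computed either. The summed FPKM of both genes was 15.7, 33.0 and 14.6 in KO 1, 2 and 3, against 25.8, 55.6 and 57.2 in control 1, 2 and 3, and here KO 2 exceeded control 1.

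**Figure D2:**
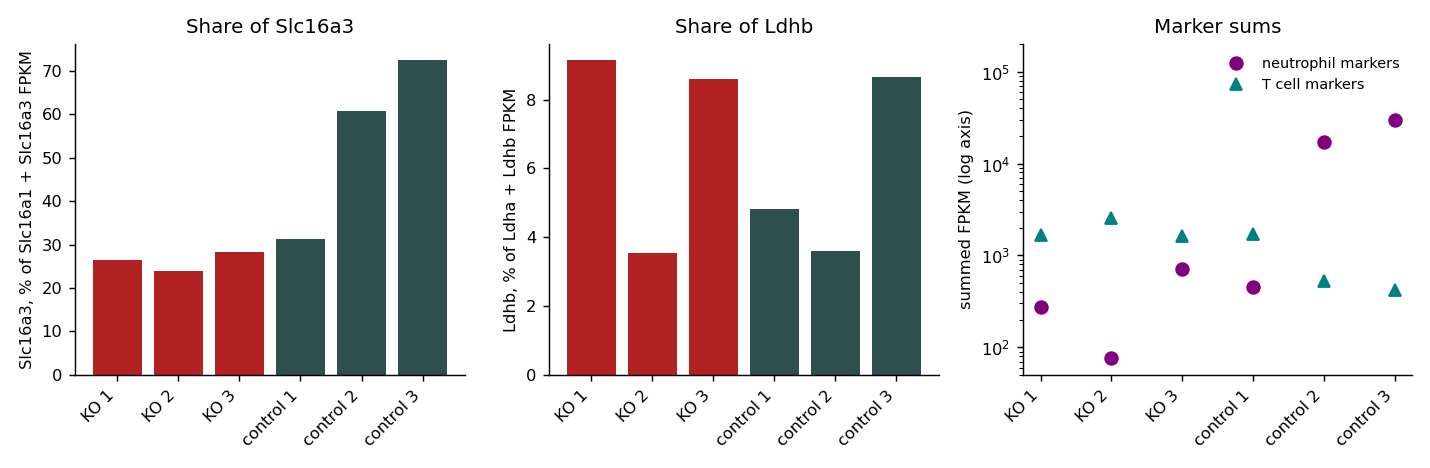
Share of Slc16a3 in the summed FPKM of Slc16a1 and Slc16a3 (left), share of Ldhb in that of Ldha and Ldhb (middle), and summed FPKM of 13 neutrophil and 14 T cell markers on a log axis (right), by library, KO to the left of control. The Slc16a3 share is 60.6% in control 2 and 72.5% in control 3, the libraries with neutrophil sums of 16956 and 29753 FPKM, while the Ldhb share runs from 3.54% to 9.16% with the groups mixed.

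Slc16a6 encodes MCT7, which in zebrafish is needed for the export of ketone bodies from the liver. It stood at 5.27, 3.35 and 3.27 FPKM in KO 1, 2 and 3, against 7.61, 6.30 and 12.1 FPKM in control 1, 2 and 3. Each KO library was below each control library, and control 3 was the highest. The 95% counting interval was 4.23 to 6.49 FPKM in KO 1 and 5.74 to 6.90 FPKM in control 2. These intervals overlapped, so the neighbouring libraries were not told apart by their depth. The means were 3.96 ± 1.13 FPKM in KO and 8.67 ± 3.05 FPKM in control (SD, n = 3 each), a difference of -0.94 (SE 0.34, 95% interval -1.75 to -0.13; limma adjusted p 0.417). Unlike that of Slc16a3, which shrank to -0.02, the estimate for KO 2 against control 1 alone was -0.99, and over all settings tried it lay between -1.23 and -0.70. Exons of Amz2, on the opposite strand, overlap 21.54% of the exon length of Slc16a6, and how the authors' counting treated strand is not given in the sources used here. Amz2 itself stood at 4.66, 6.87 and 6.20 FPKM in KO 1, 2 and 3, against 5.72, 9.75 and 8.86 FPKM in control 1, 2 and 3, with the groups overlapping; its part in the Slc16a6 values was not tested.

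Slc16a7, the MCT2 gene, was the least abundant of the 10. It had 0.494, 0.0518 and 0.731 FPKM in KO 1, 2 and 3, against 0.214, 0.461 and 1.02 FPKM in control 1, 2 and 3. The groups overlapped, 1 library reached 1 FPKM, and the gene was not tested, with 20, 9 and 26 implied reads in KO 1, 2 and 3, against 30, 82 and 182 in control 1, 2 and 3. Most of 12 further monocarboxylate transporters were low too, and those not tested were at or below 2.35 FPKM in every library. Of the 12, 3 entered the test, with 1 estimate lower, 2 higher and none called. These were Slc16a10, an aromatic amino acid transporter (3.42, 1.17 and 5.11 FPKM in KO 1, 2 and 3, against 4.45, 7.76 and 5.46 FPKM in control 1, 2 and 3), Slc16a5 and Slc16a13, and each overlapped between groups. Slc16a5 stood at 1.66, 1.82 and 1.17 FPKM in KO 1, 2 and 3, against 1.21, 0.324 and 0.539 FPKM in control 1, 2 and 3.

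The chaperones were abundant, and the genotypes overlapped for both. Bsg stood at 87.2, 141 and 97.8 FPKM in KO 1, 2 and 3, against 119, 173 and 120 FPKM in control 1, 2 and 3. Library 2 was the highest of its group in each genotype, and the groups overlapped, with a difference of -0.34 (SE 0.27, 95% interval -1.0 to 0.32; limma adjusted p 0.539). Emb stood at 122, 215 and 140 FPKM in KO 1, 2 and 3, against 185, 184 and 123 FPKM in control 1, 2 and 3. The highest and the lowest Emb values both fell in KO libraries, and the difference was -0.06 (SE 0.30, 95% interval -0.79 to 0.67; limma adjusted p 0.936). Although MCT2 RNA was scarce, its chaperone Emb exceeded Bsg in all 6 libraries, by 1.40-, 1.53- and 1.43-fold in KO 1, 2 and 3 and by 1.56-, 1.06- and 1.03-fold in control 1, 2 and 3. Nptn, the third member of the basigin family, stood at 21.5, 22.0 and 21.2 FPKM in KO 1, 2 and 3, against 23.3, 32.6 and 29.3 FPKM in control 1, 2 and 3. All KO values of Nptn lay below all control values, with a difference of -0.37 (SE 0.20) and a limma adjusted p of 0.423.

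The lactate dehydrogenase subunits showed no separation of the genotypes. Ldha stood at 129, 454 and 131 FPKM in KO 1, 2 and 3, against 223, 290 and 147 FPKM in control 1, 2 and 3. KO 2 exceeded every other library while KO 1 and KO 3 were the lowest, so that the KO group enclosed the controls. The means were 238 ± 187 FPKM in KO and 220 ± 71.1 FPKM in control (SD, n = 3 each), with a difference of -0.10 (SE 0.55, 95% interval -1.44 to 1.23; limma adjusted p 0.940). The sign rested on the choice of libraries: the difference was 1.10 without KO 1 and 3 and 1.02 between KO 2 and control 1 alone. The 5 pseudogenes of Ldha in the table held 0.482% to 1.59% of the implied reads of gene and copies in the KO libraries and 0.346% to 0.650% in the controls, and adding them gave a difference of -0.09.

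Ldhb was steadier, at 13.0, 16.7 and 12.3 FPKM in KO 1, 2 and 3, against 11.3, 10.9 and 14.0 FPKM in control 1, 2 and 3. The groups overlapped, with means of 14.0 ± 2.33 FPKM in KO and 12.0 ± 1.69 FPKM in control (SD, n = 3 each) and a difference of 0.20 (SE 0.23, 95% interval -0.36 to 0.75; limma adjusted p 0.673), the one higher estimate among the 9 genes and -0.01 after quantile normalization. By FPKM, Ldha exceeded Ldhb 9.92-, 27.3- and 10.6-fold in KO 1, 2 and 3, against 19.7-, 26.7- and 10.6-fold in control 1, 2 and 3. Per kilobase of the principal transcript it did so 15.4-, 42.4- and 16.6-fold in KO 1, 2 and 3, against 30.7-, 41.5- and 16.4-fold in control 1, 2 and 3. The ratio was high in KO 2, control 1 and control 2 and low in the other libraries, a split that crosses the genotypes. Ldhc, the subunit known from testis, was listed at 0, 0 and 0.632 FPKM in KO 1, 2 and 3, against 0.0535, 4.97 and 6.15 FPKM in control 1, 2 and 3. Its high values were those of control 2 and control 3, and it was below the limit for the test.

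Ldhb shares sequence with a processed pseudogene, Gm5514: 27.0% of all 50-base windows of its principal transcript occur there in identical form. Gm5514 stood at 23.9, 0.445 and 26.1 FPKM in KO 1, 2 and 3, against 2.48, 1.09 and 0.435 FPKM in control 1, 2 and 3. In KO 1 and KO 3 the copy held 53.9% and 57.5% of the implied reads of both, against 1.68% in KO 2 and 1.95% to 12.3% in the controls. With the copy's reads added, an alternative chosen after seeing the data, the Ldhb difference was 0.86 (limma adjusted p 0.417). KO 1 and KO 3 are also the libraries with the high receptor gene sums given above; whether these reads came from Ldhb RNA was not tested.

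For the mitochondrial carrier subunits the genotypes overlapped as well, and neither listed FPKM is a plain measure of level, Mpc2 for its long annotated exons and Mpc1 for a pseudogene. Mpc2 stood at 3.54, 4.88 and 5.30 FPKM in KO 1, 2 and 3, against 4.48, 6.75 and 7.29 FPKM in control 1, 2 and 3. Control 2 and control 3 were the highest, the groups overlapped through control 1, and the difference was -0.36 (SE 0.30, 95% interval -1.08 to 0.37; limma adjusted p 0.558). It was 0.01 without control 2 and 3. Mpc1 stood at 2.67, 1.86 and 3.20 FPKM in KO 1, 2 and 3, against 2.56, 3.23 and 5.56 FPKM in control 1, 2 and 3. KO 2 was the lowest and control 3 the highest, the groups overlapped, and the difference was -0.39 (SE 0.35, 95% interval -1.23 to 0.46; limma adjusted p 0.585). Single libraries carried much of it: the difference was -0.13 without control 3, -0.24 without KO 2, -0.01 without control 2 and 3, -0.69 without KO 1 and 3 or after quantile normalization, and -0.76 in limma-voom.

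The Mpc1 level depends on how the reads of its processed pseudogene are assigned. Mpc1-ps, on chromosome 12, is equal to the Mpc1 transcript (chromosome 17) at 329 of its 330 bases (99.7%). The first 120 bases of the copy and of the matching stretch of Mpc1, from the GENCODE M21 transcripts, contain the 1 base that differs, in capitals, to show how little tells their reads apart.
Mpc1: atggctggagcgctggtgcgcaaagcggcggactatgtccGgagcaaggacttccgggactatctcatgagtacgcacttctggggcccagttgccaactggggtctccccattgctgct
Mpc1-ps: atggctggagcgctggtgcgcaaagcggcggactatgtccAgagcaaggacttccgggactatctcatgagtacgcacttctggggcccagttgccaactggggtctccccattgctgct
Any read that misses this base and lies within the copy is the same for both genes. Mpc1-ps was listed at 62.9, 66.9 and 51.4 FPKM in KO 1, 2 and 3, against 67.8, 294 and 302 FPKM in control 1, 2 and 3. It held 71.8% to 85.0% of the implied reads of both in the KO libraries and 80.8% to 93.5% in the controls. Per kilobase of its principal transcript, Mpc1 had from 4.05 (KO 2) to 12.1 (control 3) implied reads per 1000000 fragments. Added together, both had 26.3, 25.9 and 23.6 implied reads per 1000000 fragments in KO 1, 2 and 3, against 27.7, 104 and 111 in control 1, 2 and 3. Control 1 lay just above the KO libraries, and control 2 and control 3, the libraries high in neutrophil markers, lay far above. With the copy's reads added the Mpc1 difference was -1.37 (limma adjusted p 0.417), against -0.39 for Mpc1 as listed. Whether the copy's reads came from Mpc1 RNA was not tested, so -1.37 is not a corrected Mpc1 difference. The part of those markers' cells in the sum was not tested.

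**Figure D3:**
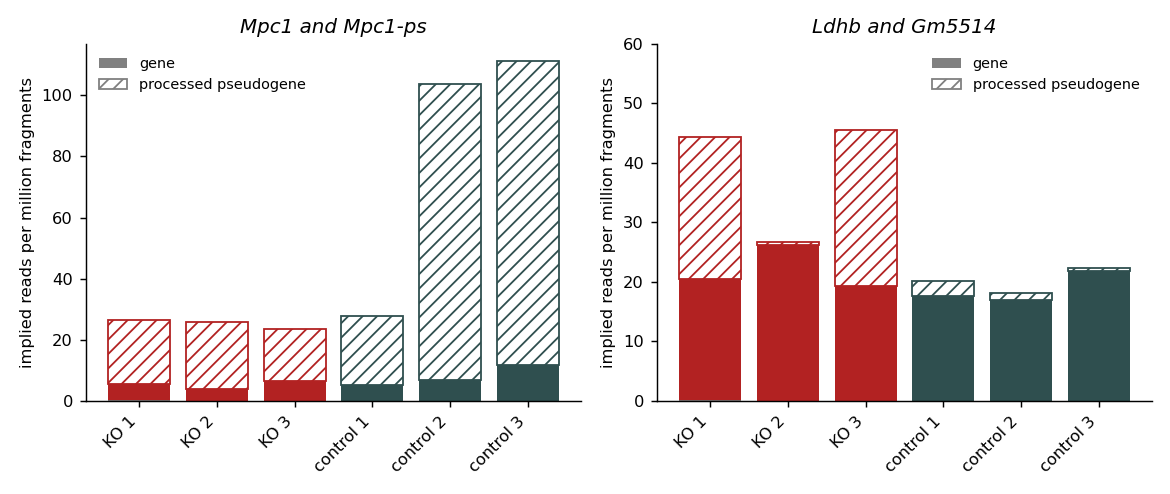
Implied reads per 1000000 fragments of Mpc1 (solid) and its processed pseudogene Mpc1-ps (hatched), left, and of Ldhb and Gm5514, right, by library, KO to the left of control. For Mpc1 the copy is the larger part in every library and the sum reaches 104 and 111 in control 2 and control 3; for Ldhb the copy is the larger part in KO 1 and KO 3.

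Ranked by median FPKM over the 6 libraries, Ldha (185), Emb (162) and Bsg (119) formed the upper group. Slc16a1 (16.7), Ldhb (12.7), Slc16a3 (7.96), Slc16a6 (5.78), Mpc2 (5.09), Mpc1 (2.93) and Slc16a7 (0.478) followed. Emb exceeded Bsg, Bsg exceeded Slc16a1, Mpc2 exceeded Mpc1 and Mpc1 exceeded Slc16a7 in all 6 libraries. Other neighbours were not in 1 order everywhere: Ldha exceeded Emb in 5 of 6 libraries, Slc16a1 exceeded Ldhb in 4, Ldhb exceeded Slc16a3 in 4, Slc16a3 exceeded Slc16a6 in 5 and Slc16a6 exceeded Mpc2 in 3. FPKM divides by the summed length of all annotated exons, which for Mpc2 is 7344 bases against 1025 in its principal transcript, a factor of 7.16, and for Emb 2.36, Mpc1 2.17 and Ldha 1.87. Per kilobase of the principal transcript the medians were 383 for Emb, 347 for Ldha, 142 for Bsg, 36.5 for Mpc2 and 6.37 for Mpc1, so that Emb passed Ldha and Mpc2 passed Slc16a1 (16.7). These factors are the same in every library, but a lower FPKM lets the pseudocount of 1 shrink the log2 difference: with a pseudocount of 0.1 it was -0.42 for Mpc2 and -0.49 for Mpc1. If the reads of Mpc1-ps came from Mpc1 RNA, which was not tested, Mpc1 would stand at 12.6, 12.4 and 11.4 FPKM in KO 1, 2 and 3. In control 1, 2 and 3 it would stand at 13.3, 49.8 and 53.4 FPKM. These values lie above the listed Mpc2 FPKM in all 6 libraries, but that FPKM is lowered by the long annotated exons of Mpc2. The order of the carrier subunits therefore rests both on how these reads are assigned and on the length taken.

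**Figure D4:**
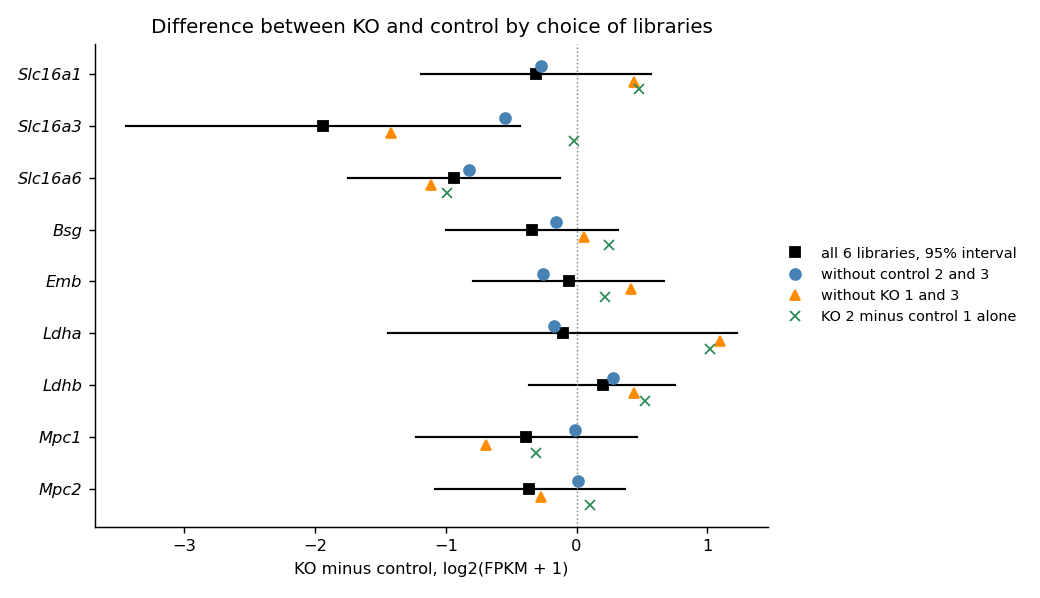
KO minus control on the log2(FPKM + 1) scale for the 9 tested genes: squares with limma's 95% intervals for all 6 libraries, circles without control 2 and 3, triangles without KO 1 and 3, and crosses for KO 2 minus control 1. Slc16a6 stays between -1.11 and -0.82 in these 4 choices, Slc16a3 runs from -1.94 to -0.02, and Ldha from -0.17 to 1.10.

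Upstream of pyruvate, all 20 genes of the glycolysis list were tested, 16 had lower and 4 higher estimates in KO, against 43.1% lower over all genes tested, and none was called. The groups did not overlap with KO lower for 4 of the 20, against 9.44% of all genes, and with KO higher for 2, against 6.70%. Their median difference was -0.36, and 0.03 without KO 1 and 3. Those with the smallest p were the hexokinases Hk3 and Hk2 and the mutase Pgam1. Hk3 stood at 9.85, 11.4 and 17.0 FPKM in KO 1, 2 and 3, against 23.5, 95.5 and 118 FPKM in control 1, 2 and 3, a difference of -2.29 (SE 0.62, limma adjusted p 0.417). Like Slc16a3, it was highest in control 2 and control 3. Hk2 stood at 2.45, 5.0 and 3.35 FPKM in KO 1, 2 and 3, against 6.52, 14.0 and 22.0 FPKM in control 1, 2 and 3. Pgam1 stood at 75.7, 156 and 70.9 FPKM in KO 1, 2 and 3, against 167, 232 and 261 FPKM in control 1, 2 and 3.

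Among genes for other uses of pyruvate, 16 of 18 were tested, 8 estimates were lower and 8 higher, none was called, and the median was 0.06. Without overlap, KO was lower for 2 of the 16, against 9.44% of all genes tested, and higher for 2, against 6.70%. Pdk1, a kinase that switches off pyruvate dehydrogenase, had the highest estimate. It stood at 26.8, 31.8 and 22.0 FPKM in KO 1, 2 and 3, against 5.44, 6.13 and 5.76 FPKM in control 1, 2 and 3. All KO libraries were far above all controls and the spread within each group was small, with a difference of 2.03 (SE 0.23) and a limma adjusted p of 0.310. Pdp2, a phosphatase that reverses this inhibition, stood at 8.73, 3.58 and 9.53 FPKM in KO 1, 2 and 3, against 3.38, 2.33 and 2.40 FPKM in control 1, 2 and 3, also without overlap. The alanine aminotransferase Gpt2 stood at 0.466, 0.688 and 0.531 FPKM in KO 1, 2 and 3, against 1.05, 4.20 and 3.10 FPKM in control 1, 2 and 3. For the shuttles that restore cytosolic NAD+ in place of lactate dehydrogenase, 9 of 10 genes were tested, with 5 estimates lower, 4 higher, none called and a median of -0.01. Slc25a13, a mitochondrial aspartate and glutamate exchanger, was the one without overlap, at 4.70, 4.39 and 5.61 FPKM in KO 1, 2 and 3, against 2.91, 2.17 and 2.29 FPKM in control 1, 2 and 3. That 1 of 9 stands beside 6.70% of all genes tested with KO higher, and 0 beside 9.44% with KO lower.

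Of the regulators, 13 of 14 were tested, 8 estimates were lower, 5 higher and none was called. Without overlap, KO was lower for 2 of the 13, against 9.44% of all genes tested, and higher for 0, against 6.70%. Hif1a, a subunit of hypoxia-inducible factor, stood at 13.5, 27.7 and 8.69 FPKM in KO 1, 2 and 3, against 22.5, 53.6 and 35.5 FPKM in control 1, 2 and 3, and the groups overlapped through KO 2 and control 1. Egln3, a prolyl hydroxylase of that factor, stood at 4.17, 4.63 and 2.13 FPKM in KO 1, 2 and 3, against 5.17, 26.2 and 30.0 FPKM in control 1, 2 and 3. As for Slc16a3, control 2 and control 3 were the high libraries and control 1 lay beside KO 2. Tfe3, a transcription factor of lysosomal genes, stood at 5.65, 4.77 and 3.52 FPKM in KO 1, 2 and 3, against 7.17, 8.94 and 11.6 FPKM in control 1, 2 and 3, with no overlap.

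**Figure D5:**
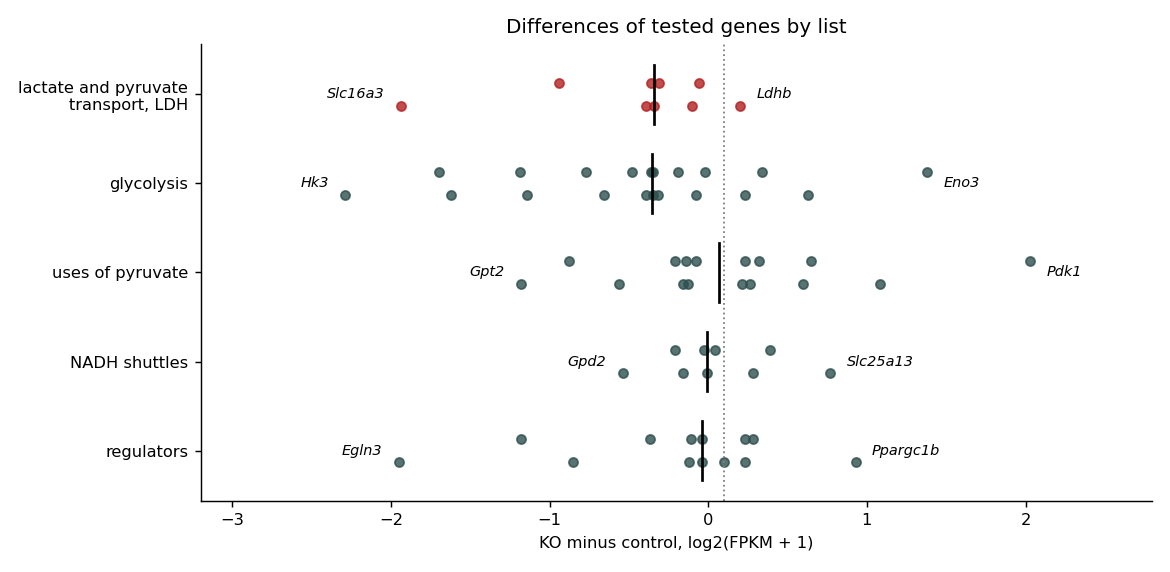
KO minus control on the log2(FPKM + 1) scale for tested genes of each list (points; short vertical lines are list medians, the dotted line the median of all 13956 genes, 0.10). Slc16a3 is the lowest of the 9 lactate and pyruvate genes at -1.94, Hk3 of the glycolytic genes at -2.29, and Pdk1 is the highest of all shown at 2.03.

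The genes whose pattern over the 6 libraries lay closest to 4 of these genes were found among 10832 protein-coding genes by the root mean square difference of centred log2(FPKM + 1). For Slc16a3 they were Ms4a2 (0.163), Cd44 (0.175) and Fbxl5 (0.195). Cd44, an adhesion receptor, stood at 8.20, 12.5 and 9.19 FPKM in KO 1, 2 and 3, against 19.1, 63.2 and 69.7 FPKM in control 1, 2 and 3, again highest in control 2 and control 3. For Ldha they were Samd3 (0.172), the glycolytic Tpi1 (0.187) and Rcn1 (0.219). Tpi1 shared the high KO 2, at 52.0, 177 and 58.8 FPKM in KO 1, 2 and 3, against 89.1, 147 and 81.5 FPKM in control 1, 2 and 3. For Slc16a1 they were Hsdl2 (0.081), Hnrnpa1 (0.091) and Cdk4 (0.099), and for Slc16a6 Flna (0.084), Best1 (0.105) and Pdxk (0.113). These are descriptions over 6 libraries, and all genes compared share each library's depth and cell make-up, which differ between the libraries.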

How the data were processed

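Values deposited by the authors were FPKM, 1 file per library; the unit was read from the values, since the labels do not name it. Tools listed in the submitters' processing notes are Bowtie2 2.2.3, HISAT2 2 and HTSeq 0.6.0, and the genome build listed is mm8; their roles are not stated. Symbols and exon lengths came from GENCODE M21 (35358 of 35458 identifiers matched). Low FPKM values times exon length were whole multiples of 1 step per library (92.1% to 93.4% of values under 200 reads within 0.02), which gave the implied reads and totals. Counts from the authors were not used, and limma-voom and the counting intervals took the implied reads. Implied reads summed over genes exceeded the total by 8.31% to 12.32%.

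Genes that reached 1 FPKM in 3 or more libraries were tested as log2(FPKM + 1) with limma 3.58.1 (R 4.3.3, intensity trend, Benjamini-Hochberg adjustment, group as the only term), after the procedure was checked on simulated data. The simulated reads had the same setting for the spread in every gene and no difference in cell make-up between libraries. The check therefore does not cover such differences. The pseudocount of 1 shrinks differences of low genes. Tables were made with Python 3.11.15, pandas 2.3.3, numpy 2.4.6, scipy 1.17.1 and matplotlib 3.10.9. No replicate libraries were identical.

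The members and lists were chosen with earlier results of these data known. All 10 members, and up to 3 genes per further list with the smallest p, are named, with the 3 genes of nearest pattern for 4 members. Named outside this rule, after their values were seen, are Ldhc, Amz2, Ppargc1a, Gm43581 and the pseudogenes. Alternatives were a pseudocount of 0.1, quantile normalization, all genes above 0 in any library, a replicate block, protein-coding genes, limma-voom on implied reads, each library left out, fits without control 2 and 3 or KO 1 and 3, and KO 2 against control 1. Adding pseudogene reads was chosen after seeing the data.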

Additional observations from a re-analysis of the deposited data

How the results depend on the processing

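Leaving out 1 library at a time gave 0 to 1821 genes called by limma at an adjusted p of 0.05, against 0 with all 6; the counts above 0 were 1821 without KO 2 (1687 higher, 134 lower) and 363 without control 1 (146 higher, 217 lower). The members called ran from 0 to 1, the 1 being Slc16a3 without control 1. The other settings with a test called 0 genes and 0 members, and so did the replicate block, in which Slc16a3 had an adjusted p of 0.390 at a difference of -1.94. Libraries of the same number did not deviate together (correlations of 0.112, 0.020 and 0.018), so the numbers were not taken as pairs. Over the alternatives for the 9 tested members, 123 values kept direction and, where tested, side of the threshold. Of the others, 18 changed sign, 1 passed the threshold and 2 moved. The 2 that moved were for KO 2 against control 1, without a test, and differed by more than the larger SD within a group. Testing all genes above 0, protein-coding genes alone or a replicate block cannot change an estimate. Adding pseudogene reads cannot change that of a member without copies. Those values kept direction by design. Fits without KO 1 and 3 or without control 2 and 3 rest on a single library of that genotype, taken to have the spread of the other genotype. Without KO 1 and 3, estimates turned to 0.06 for Bsg, 0.42 for Emb, 1.10 for Ldha and 0.44 for Slc16a1. Between KO 2 and control 1 alone they were 0.25, 0.22, 1.02 and 0.48 for the same genes, and 0.10 for Mpc2. Mpc2 was 0.01 without control 2 and 3, and Ldhb -0.01 after quantile normalization. Leaving out 1 library, Emb ran from -0.30 to 0.11 and Ldha from -0.70 to 0.20. Beyond the libraries left out, the cause of these changes was not tested. Depth limits the shallow libraries most: KO 1 and KO 3 held 76 and 66 implied reads of Slc16a3 and 19 and 20 of Mpc1.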

Other observations

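A sense intronic transcript within Slc16a1, Gm43581, which shares no exon bases with the gene, stood at 15.5, 0.143 and 13.8 FPKM in KO 1, 2 and 3, against 1.83, 0.349 and 0.627 FPKM in control 1, 2 and 3. It was chosen after its values were seen. In KO 1 and KO 3 its FPKM exceeded that of Slc16a1 itself (11.6 and 10.5). Ppargc1a, a coactivator of mitochondrial genes and 1 of the 14 regulators, was split the same way, at 1.77, 0.0620 and 2.22 FPKM in KO 1, 2 and 3, against 0.346, 0.0404 and 0.0101 FPKM in control 1, 2 and 3. Both were highest in the libraries with the lowest implied totals and the highest sums of olfactory and vomeronasal receptor genes, and what part depth had was not tested.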
